A study of Mus musculus with 28 samples.

Results

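The genes described here are 9 regulators that astrocytes share with the progenitors of the brain: the transcription factors Sox2, Sox9, Nfia, Nfib and Nfix, the receptors Notch1 and Notch2, and the Notch targets Hes1 and Hes5. They were chosen by name, with earlier results of these data known. All 9 were among the 23453 genes of a table of exonic read counts, and 8 were among the 20422 genes of a table of intronic read counts, which has no row for Sox2, a gene without introns. Both tables hold the same 28 columns, each a single mouse brain cell. The sample labels give 12 neurons and 8 astrocytes from culture, of the C57/BL6 strain, and 8 interneurons of the strain C57/BL6/N, which were drawn with a patch pipette from acute slices of the prefrontal cortex. The labels name no allele, agent or treatment, and no animal or culture for a cell. For the cultured cells the protocol text describes a male mouse 3 months of age that was fixed by perfusion with paraformaldehyde, and it gives no age for the interneurons. The study's methods instead describe cultures of dispersed brain cells from mouse embryos, so the age of the cultured cells is uncertain. The 2 kinds of material also differed in library kit and sequencer (TruSeq Nano DNA and a NextSeq for the cultured cells, TruSeq Stranded and a HiSeq for the interneurons).

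The columns of the tables carry codes, and 0 of the 28 codes matched a sample label. Values are therefore given for 3 blocks of codes: 8 columns named BRP564 and BRP566 to BRP572 (here the upper BRP columns), 12 columns between BRP528 and BRP543 (the lower BRP columns), and 8 columns whose code begins with F. From the block sizes and the marker genes these have been presumed to be the astrocytes, the neurons and the interneurons, in that order. Because the identity is presumed, in part from the same counts, no test between blocks was made, and the blocks are described by each column's value, their range and their median. Between the F and the BRP columns, presumed cell type, library kit and sequencer cannot be told apart, whereas by the labels the kit and sequencer are the same for cultured neurons and astrocytes.

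In the developing forebrain, Sox2 keeps progenitors undifferentiated, and Sox9 together with the nuclear factor I proteins, Nfia, Nfib and Nfix, is needed for the switch from making neurons to making astrocytes. Notch receptors are cut within the membrane after binding a ligand on a neighbouring cell. The freed intracellular part joins the DNA-binding protein Rbpj and turns on Hes1 and Hes5, repressors that hold neuronal factors of the Neurog and Neurod type in check. Mature astrocytes keep many of these factors, whereas most mature neurons lose Sox9 and the Hes genes.

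Sequencing depth differed between the blocks. Exonic counts per column ran from 12969692 to 19798892 in the upper BRP columns, from 17483754 to 26770944 in the lower BRP columns and from 838343 to 14831505 in the F columns. A count of 0 with an upper limit of 3 counts thus allows up to 0.231 CPM (the exonic count scaled to a column total of 1000000) in the upper BRP columns, 0.172 in the lower BRP columns and 3.58 in the shallowest F column, F16. Of all counts, a median of 8.75% were intronic in the upper BRP columns, 15.7% in the lower BRP columns and 50.4% in the F columns, with F1 the lowest of these at 5.31%. In the upper BRP columns 9 of 10 astrocyte markers had a count in every column and Gjb6 was at 0, with summed levels of 1608 to 6255 CPM. These sums overlapped those of the lower BRP columns, at 195 to 2476 CPM, and of the F columns, at 0 to 4352 CPM. Much of that overlap was Slc1a2, the glial glutamate transporter, which ran from 43.2 to 469.7 CPM in the upper BRP columns, from 164 to 2459 in the lower BRP columns and up to 4350 CPM in F7. The 10 neuron markers summed to 328 to 1104 CPM in the upper BRP columns and to 5193 to 11472 CPM in the lower BRP columns. The neuron sums of the F columns, at 1608 to 18032 CPM, overlapped those of the lower BRP columns. The 6 GABAergic markers summed to 564 to 11673 CPM in the F columns. Their sums were 3.54 to 54.8 CPM in the upper BRP columns and 0.0572 to 2845 CPM in the lower BRP columns. Of the lower BRP columns only BRP528, the highest, lay within the F range.

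Several columns stood apart. F11 and F12 were far more alike than any other pair: Pearson's r of their log2 levels was 0.954 against 0.190 to 0.489 for the other 27 pairs of F columns and at most 0.922 for any other pair of the 28, and chi-square per degree of freedom was 17.6 against 1261 to 4011 for other F pairs and at least 219 for any other pair. They shared 2729 genes with an exonic count, 41.6% of those in F11 and 74.2% of those in F12. They still differed by more than counting noise. Chi-square takes reads as independent molecules, which amplified reads are not, so it cannot tell whether F11 and F12 are separate cells. They were kept as separate columns, and the main results that rest on them are also given without them. F11 and F12 had 18.9 and 0.739 CPM of Gad1, the enzyme that makes GABA, against 1092 or more in each of the other 6 F columns, while Slc32a1, the vesicular GABA transporter, was at 443 and 618 CPM in them. Of the lower BRP columns, BRP528 and BRP529 were highest in Aqp4, the astrocyte water channel, at 142 and 418 CPM. The next lower BRP column had 28.9 CPM of Aqp4, and the upper BRP columns had 652 to 2062. BRP528 and BRP529 also held neuron markers at 9897 and 5193 CPM in sum. The part of these columns in the results below was not tested beyond leaving them out.

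The 9 genes were not detected evenly. An exonic count was present in every upper BRP column for 8 of 9 genes, all but Hes5, where 51.6% of the 16403 genes tested (those with at least 10 exonic counts over all columns) had one. In the lower BRP columns 3 of 9 genes, Sox9, Nfib and Nfix, had a count in every column, against 40.1% of all genes. In the F columns only Nfib did, against 1.61% of all genes, and Nfib was likewise the only one of the 9 with a count in all 28 columns, against 1.38%. At a limit of 10 counts or 1 CPM, or with columns thinned to 800000 counts, 0 of the 9 genes were in every F column. Counted per column, 8 to 9 of the genes were detected in an upper BRP column, 5 to 8 in a lower BRP column and 1 to 7 in an F column. F2 held counts of Nfib alone.

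**Figure D1:**
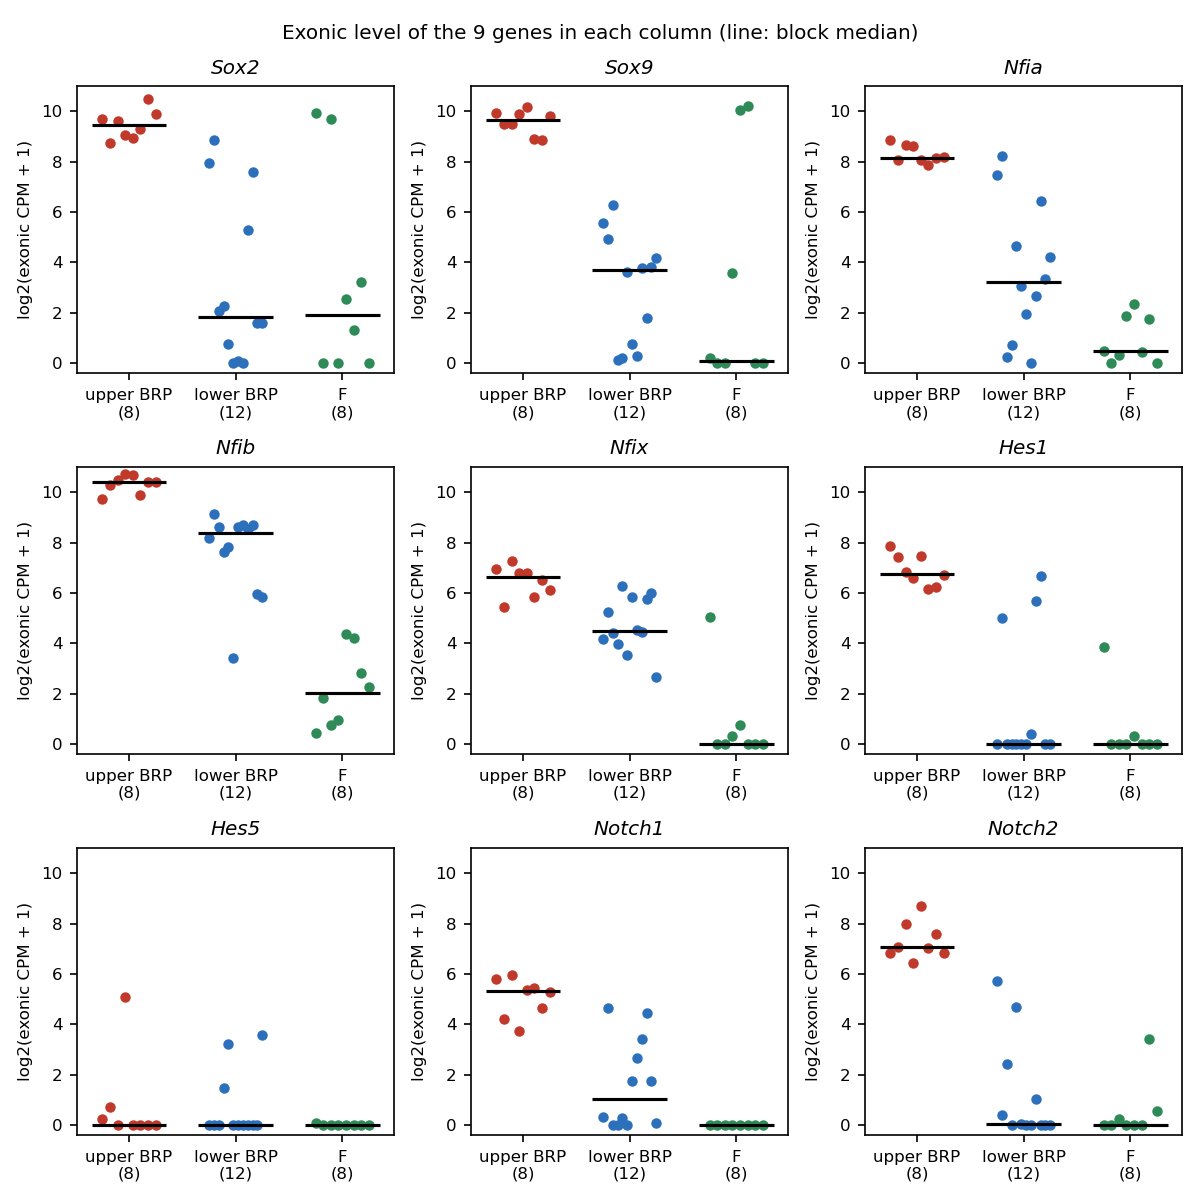
Exonic level of each of the 9 genes, as log2(CPM + 1), in the 8 upper BRP, 12 lower BRP and 8 F columns. Each point is a column and each line a block median. For Sox9, Nfib and Notch2 every upper BRP column lies above every lower BRP column, whereas single F columns reach the upper BRP level for Sox2 and Sox9.

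Block ranges were compared by asking whether the lowest column of one block lay above the highest of another. Between the upper and lower BRP columns this held for 3 of 9 genes, Sox9, Nfib and Notch2, where 3.20% of all genes tested did so. Leaving out BRP528 and BRP529 added Sox2 and Nfia, for 5 of 9 genes against 4.98% of all genes. Between the upper BRP and the F columns it held for 6 of 9 genes, Nfia, Nfib, Nfix, Hes1, Notch1 and Notch2, against 19.4% of all genes, and without F11 and F12 for 7, Sox9 being added, against 20.8%. Scaled by TMM or DESeq2 factors, Nfix overlapped between these blocks and 5 of 9 genes were left, against 14.7% and 12.4% of all genes. No member was wholly higher in the lower BRP than in the F columns, where 8.62% of all genes were. Without F11 and F12 this held for 1 of 9 genes, Nfib, against 9.55% of all genes, and without F1 for 1, Nfix, against 11.8%. In the opposite directions there were likewise 0 members: 2.52% of all genes were wholly higher in the lower than in the upper BRP columns, 0.0305% wholly higher in F than in the upper BRP columns and 0.00% in F than in the lower BRP columns. These are counts for single cells of presumed type, and in a cell with fewer RNA molecules a low gene is missed more often.

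Sox2, a partner of POU factors in neural stem cells, lies on chromosome 3 at 34650405 to 34652461 of mouse genome build GRCm38, plus strand, and is a single exon. Its exonic level in the upper BRP columns was lowest at 430 CPM in BRP566, with a median of 700 and a highest value of 1415 CPM in BRP571. The lower BRP columns had a lowest value of 0, a median of 2.57 and a highest value of 461 CPM in BRP529. This block was uneven: BRP528 had 247, BRP541 191 and BRP540 38.3 CPM, the other 8 columns had at most 3.81 CPM, and only BRP529 reached into the upper BRP range. Sox2 was again split among the F columns, with 980 CPM in F1 and 835 in F6, no more than 8.35 CPM in the other 6, and 0 counts in F2, F7 and F24. F1 and F6 thus lay within the range of the upper BRP columns.

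Sox2 sits inside an intron of Sox2ot, a long noncoding transcript on the same strand, with 0 shared exon bases. Sox2ot had 35.6 to 129.9 exonic CPM in the upper BRP columns. The lower BRP columns highest in Sox2 also had Sox2ot, at 54.0 CPM in BRP529, 47.8 in BRP528 and 32.1 in BRP541, and the other 9 had 0 to 24.5 CPM. In the F columns with high Sox2 the noncoding gene differed, since F6 had 81.1 CPM of Sox2ot and F1 had 0. F11 and F12, with 21 and 4 exonic counts of Sox2, likewise had 0 exonic counts of Sox2ot. Their intronic counts of Sox2ot were 12543 and 7347, against 464 to 11747 in the upper BRP columns. Reads of Sox2 and of the Sox2ot intron around it depend on how the authors' counting resolved the overlap, which is not given in the sources used here.

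Sox9, which marks astrocytes among mature brain cells and acts upstream of Nfia, lies on chromosome 11 at 112782224 to 112787760, plus strand. Its upper BRP level ran from 468 CPM in BRP571 through a median of 813 to 1152 CPM in BRP569. The lower BRP columns ran from 0.0940 through a median of 11.8 to 75.8 CPM in BRP534. The blocks did not overlap and their medians stood 68.7-fold apart, yet each of the 12 lower BRP columns had at least 2 counts of Sox9. Of the F columns, F12 had 1180 and F11 had 1063 CPM, F7 had 10.8, F1 had 0.135, and F2, F6, F16 and F24 had 0. The 2 near-alike columns were therefore level with the upper BRP columns in Sox9, while their Aqp4 was 0.683 and 0 CPM, and Gfap, the astrocyte filament protein, and Aldh1l1, an astrocyte folate enzyme, were at 0 in both. The same columns had 167900 (F11) and 176930 CPM (F12) of Rn45s, a ribosomal RNA precursor, where no other column had more than 18784, and their oligodendrocyte markers summed to 1436 and 1294 CPM. In F11 the oligodendrocyte sum was nearly all Mobp, at 1435.8 CPM. The part of Rn45s and of these markers in the Sox9 level of F11 and F12 was not tested. Without F11 and F12 the highest F value of Sox9 was 10.8 CPM.

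Outside the upper BRP block the 2 SOX genes were not high in the same columns. No column outside the upper BRP block reached the upper BRP range of both: BRP529, at 461 CPM of Sox2, had 29.6 CPM of Sox9. F1 and F6 had Sox2 without Sox9 beyond 2 counts, and F11 and F12 had Sox9 with Sox2 at 4.78 and 1.48 CPM. Within the upper BRP columns Spearman's rho between them was −0.381 (n = 8), and over all 28 columns it was 0.395, a value to which the difference between blocks contributes. Across the lower BRP columns it was 0.459 (n = 12), with BRP534, the highest in Sox9, at only 3.14 CPM of Sox2. Across the F columns rho was −0.0130 (n = 8).

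**Figure D2:**
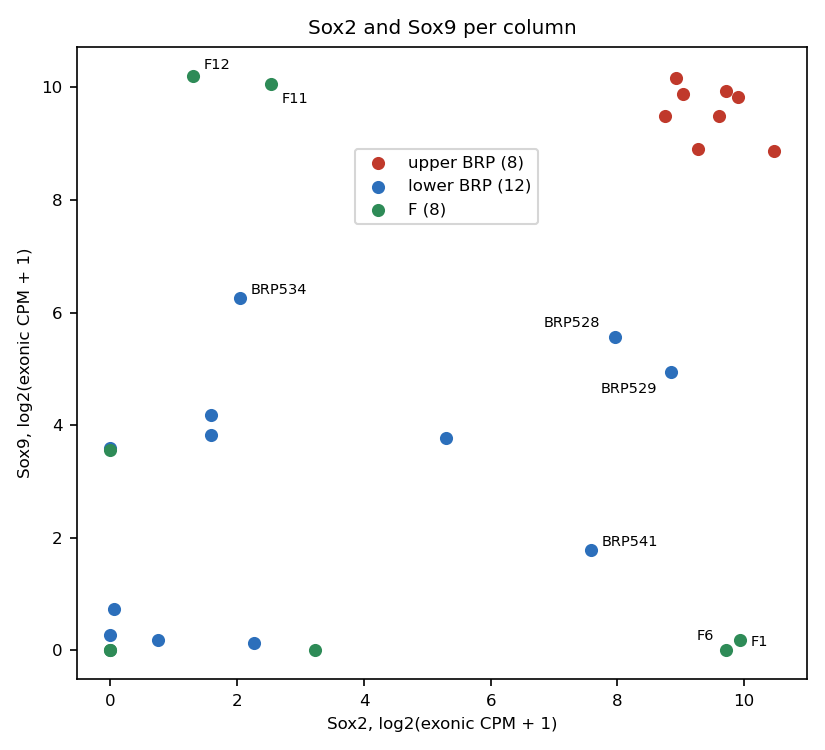
Exonic level of Sox9 against Sox2, both as log2(CPM + 1), in the 28 columns, coloured by block. The 8 upper BRP columns form one group at high levels of both, F1 and F6 are at that level in Sox2 and not in Sox9, and F11 and F12 in Sox9 and not in Sox2.

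The nuclear factor I proteins bind DNA as dimers, and Nfia and Nfib act early in astrocyte formation. Nfia lies on chromosome 4 at 97772734 to 98118874, plus strand. Its upper BRP exonic level was 231 CPM at the lowest (BRP570), 285 at the median and 457 at the highest (BRP564), a spread of 1.98-fold. The lower BRP values were 0 at the lowest (BRP539), 8.30 at the median and 294 CPM at the highest (BRP529), with 176 CPM in BRP528 and 85.4 in BRP541 next. The columns highest in Nfia in this block were thus also the 3 highest in Sox2. Nfia in the F columns had a median of 0.387 CPM and a maximum of 4.10 CPM in F11, with 53 exonic counts in the 8 columns together, so that all F columns lay below all upper BRP columns.

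Nfib lies on chromosome 4 at 82290173 to 82705750, minus strand. It was the most evenly detected of the 9 genes, with 850 CPM at the lowest (BRP564), 1358 at the median and 1698 at the highest (BRP568) in the upper BRP columns. The lower BRP columns ran from 9.53 CPM in BRP537 through a median of 331 to 564 CPM in BRP529. All upper BRP columns were above all lower BRP columns, but the medians were only 4.11-fold apart, and 9 of the 12 lower BRP columns had at least 195.6 CPM, the exceptions being BRP542, BRP543 and BRP537. The F columns ran from 0.337 CPM in F1 through a median of 3.15 to 19.6 CPM in F11, with F12 at 17.4. Nfib in the F columns therefore overlapped the lower BRP columns only through BRP537, which lay below F11 and F12.

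Nfix, the family member best known from neural stem cell quiescence, lies on chromosome 8 at 84699876 to 84800344, minus strand. In the upper BRP columns its level was 42.3 CPM at the lowest (BRP566), 99.1 at the median and 152 at the highest (BRP567). The lower BRP values were 5.31 CPM at the lowest (BRP543), 21.6 at the median and 77.0 at the highest (BRP536), so the blocks overlapped, and every lower BRP column held at least 104 counts. Only 1 of the F columns, F1, was well above 0, at 31.7 CPM, with 0.683 in F11, 0.230 in F7 and 0 in the other 5. Without F1 every lower BRP column was above every F column in Nfix. The fourth family member, Nfic, ran from 27.6 to 67.7 CPM in the upper BRP, from 1.51 to 34.1 in the lower BRP and from 0 to 4.34 CPM in the F columns.

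**Figure D3:**
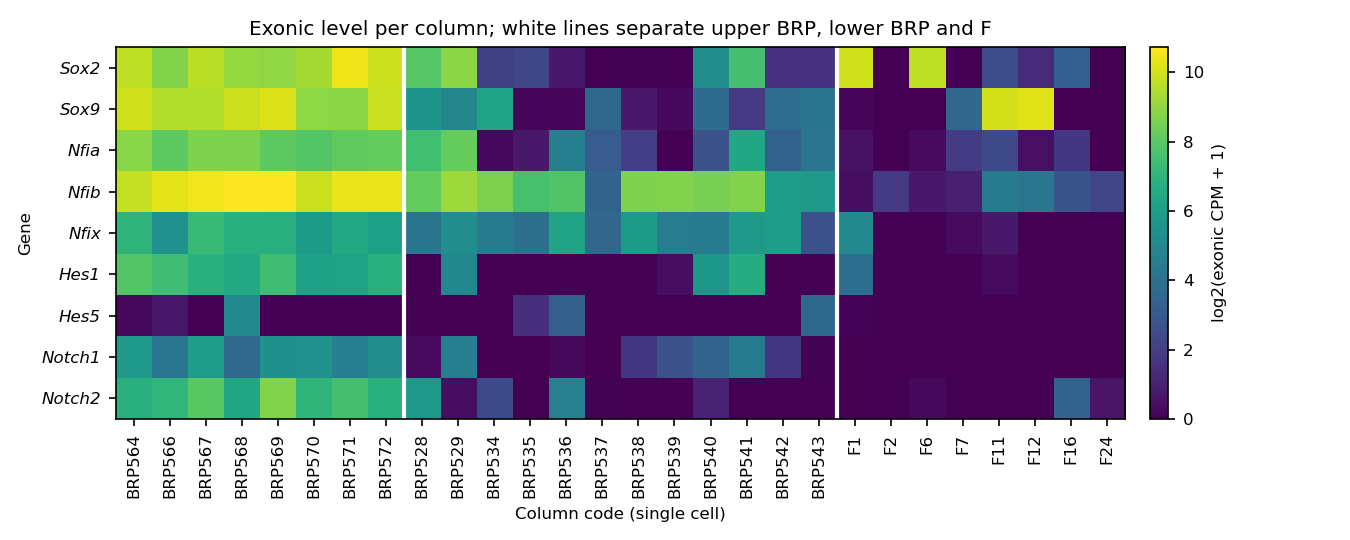
Exonic level of the 9 genes (rows) in each of the 28 columns, as log2(CPM + 1) on the colour scale, ordered upper BRP, lower BRP and F. The upper BRP columns are filled in 8 of 9 rows, Nfib is filled through most of the lower BRP columns, and Notch1 is at 0 counts in all F columns.

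Of the receptors, Notch1 lies on chromosome 2 at 26457903 to 26516663, minus strand. It ran from 12.1 CPM in BRP568 through a median of 39.2 to 60.9 CPM in BRP567 in the upper BRP columns. The lower BRP columns ran from 0 through a median of 1.29 to 23.99 CPM in BRP529, with 20.6 in BRP541 and counts in 9 of 12 columns. The highest lower BRP columns therefore reached past the lowest upper BRP column. All 8 F columns had 0 exonic counts of Notch1, which allows up to 0.202 CPM in the deepest, F1, and up to 3.58 CPM in F16.

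Notch2 lies on chromosome 3 at 98013527 to 98150361, plus strand. It ran from 84.7 CPM in BRP568 through a median of 132 to 409 CPM in BRP569 in the upper BRP columns. The lower BRP median was 0.0187 CPM, counts were present in 6 of 12 columns, and the highest values were 51.4 CPM in BRP528 and 24.6 in BRP536, so the blocks did not overlap. The F columns had 11 exonic counts in all, of which 8 were in F16, where they made 9.54 CPM because that column was the shallowest. The lower BRP columns with most Notch2 were not those with most Notch1: BRP528 had 0.249 CPM of Notch1 and BRP541 had no count of Notch2. Per kilobase of exon the upper BRP median of Notch2 was 12.3 CPM per kb and that of Notch1 was 2.75, and the ranges of 7.86 to 37.9 and 0.852 to 4.28 CPM per kb did not overlap.

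Hes1 lies on chromosome 16 at 30064384 to 30067796, plus strand. Its upper BRP level was 69.5 CPM at the lowest (BRP570), 108 at the median and 231 at the highest (BRP564). Of the lower BRP columns 4 of 12 had a count, with 99.8 CPM in BRP541, 50.7 in BRP540, 30.8 in BRP529 and 0.327 in BRP539, and only BRP541 lay within the upper BRP range. BRP528, although high in Sox2 and Nfia, had no count of Hes1. Of the F columns F1 had 13.5 CPM (200 counts), F11 had 1 count and the other 6 had none.

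All 4 lower BRP columns with Hes1 also had Notch1, while 5 had Notch1 without Hes1. The 4 columns with a Hes1 count had Notch1 at 23.99, 20.6, 9.78 and 5.28 CPM, which were the 4 highest Notch1 values of the block. Spearman's rho between Hes1 and Notch1 was 0.821 over the 12 lower BRP columns, the highest of the 28 pairs among the 8 genes other than Hes5 in that block, and 0.286 over the 8 upper BRP columns. With Notch2, rho of Hes1 was −0.102 and 0.238 in the same blocks. These are descriptions over few cells, in columns that presumably share library preparation, and most of the Hes1 values of the lower BRP block are tied at 0.

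Hes5 lies on chromosome 4 at 154960923 to 154962371, plus strand, and was the least detected of the 9 genes, with 1002 counts in 7 of 28 columns. BRP568 held 549 of these (33.3 CPM), BRP566 and BRP564 held 10 and 3, and the other 5 upper BRP columns had 0. In the lower BRP columns BRP543 had 11.03, BRP536 8.38 and BRP535 1.74 CPM, and in the F columns F1 had 1 count. No block median was above 0, and none of the 3 lower BRP columns with Hes5 had a count of Hes1. Hes5 thus overlapped between all 3 blocks. BRP568, the column highest in Hes5, had the lowest Notch1 and the lowest Notch2 of its block.

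Of the 6 genes with a start-site window in the RefSeq promoter table (Sox2, Nfia, Nfix, Hes5, Notch1 and Notch2; 250 bases before to 50 after the start, GRCm38.p6), 1 held the Rbpj motif GTGGGAA or its reverse complement TTCCCAC. Hes5 held it at 226 to 220 and at 83 to 77 bases before its start. The 30 bases around each match are shown because Hes5 is the member with least signal here, with the motif in capitals, both read on the plus strand from 5′ to 3′, at chr4:154960686-154960715 and at chr4:154960829-154960858:
Hes5, distal match: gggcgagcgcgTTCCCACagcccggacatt
Hes5, proximal match: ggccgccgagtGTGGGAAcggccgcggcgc
The motif was present in 5.42% of the 32851 windows of the table, and 0.161% held it more than once. The full palindrome bound by nuclear factor I dimers, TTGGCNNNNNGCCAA, was in none of the windows of the 6 genes and in 0.0365% of all windows. A match of letters describes the window only. Sox9, Nfib and Hes1 were not matched in the table.

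Levels of the members were compared with each other per kilobase of annotated exon. This takes coverage along a transcript to be even, which was not tested. The order depends on this division: in CPM alone the highest upper BRP medians were Nfib at 1358, Sox9 at 813 and Sox2 at 700. In the upper BRP columns the order of the medians was Sox2 at 340 CPM per kb, Sox9 at 197, Nfib at 90.8, Hes1 at 53.0, Nfia at 26.2, Nfix at 13.5, Notch2 at 12.3, Notch1 at 2.75 and Hes5 at 0. Of neighbours in this order, Sox2 and Sox9 overlapped in their ranges (209 to 688 and 113 to 279 CPM per kb), as did Nfib with Hes1, Hes1 with Nfia and Nfix with Notch2, so the order within these pairs is not beyond the spread of columns. Sox9 and Nfib overlapped only narrowly, in the lowest Sox9 column at 113.2 and the highest Nfib column at 113.5 CPM per kb. Nfia and Nfix did not overlap, with 21.2 CPM per kb in the lowest Nfia and 20.7 in the highest Nfix column. Among all genes compared, the upper BRP median per kb lay at percentile 99.1 for Sox2, 98.3 for Sox9, 96.4 for Nfib, 88.2 for Nfia and 57.3 for Notch1. In the lower BRP columns the order began with Nfib at 22.1, Nfix at 2.94, Sox9 at 2.86 and Sox2 at 1.25 CPM per kb, and the ranges of all 4 overlapped. Within the upper BRP columns, the spread from lowest to highest column was narrowest for Nfia and Nfib (1.98-fold and 2.00-fold) and widest for Notch2 and Notch1 (4.83-fold and 5.02-fold), leaving out Hes5.

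Exonic and intronic reads gave different pictures of the long genes. Nfia has 335 kb of introns, Nfib 401, Notch2 126, Nfix 93.1 and Notch1 44.5. In the upper BRP columns 39.3% of Nfia counts were intronic, against 12.5% for Nfib, 19.5% for Nfix, 7.82% for Notch1, 7.99% for Notch2 and 9.13% for the counts of all genes together. The lower BRP shares were 35.7%, 13.3%, 13.9%, 11.9% and 32.9%, against 18.6% for all genes. Nfia thus stood above the share of all genes in both BRP blocks, but its share differed widely between columns, from 11.5% to 63.5% in the upper and from 10.7% to 100% in the lower BRP columns. Single columns carried several of the other shares. Among the upper BRP columns, Nfix was at 10.8% without BRP570, Notch1 at 4.36% without BRP566 and Notch2 at 5.02% without BRP567. Among the lower BRP columns, Nfix was at 7.45% and Notch1 at 2.55% without BRP542, Notch1 at 18.6% without BRP529, and Notch2 at 55.5% without BRP528 and 21.7% without BRP543.

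Reads of Nfia, Nfib and Notch2 in the F columns lay largely in introns. Nfia had 1006 intronic against 53 exonic counts (95.0%; exact 95% binomial interval 93.5% to 96.2%), Nfib 1068 against 181 (85.5%), and Notch2 2090 against 11 (99.5%; 99.1% to 99.7%), where 41.1% of all F counts were intronic. Nfix had 31 against 475 (6.13%), but F1 held 470 of its exonic counts, the share was 85.3% without F1 and 4.06% without F7, and 5 of the 6 F columns with Nfix counts had more intronic than exonic ones. The Nfib share was 50% without F2. Without F11 and F12 the shares were 96.5% for Nfia, 95.3% for Nfib, 99.1% for Notch2 and 3.67% for Nfix. These intervals cover counting error only, and reads amplified without molecular identifiers are not independent molecules. The Notch2 counts were uneven, with 1130 in F7, 470 in F11 and 408 in F12 and at most 36 in the other 5 F columns. Likewise F2 held 901 of the Nfib and F24 held 583 of the Nfia intronic counts. More intronic than exonic counts were found in 7 of 8 F columns for Nfia, 6 for Nfib and 7 for Notch2.

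Although 5 of 8 F columns had no exonic count of Notch2, each of Nfia, Nfib and Notch2 had intronic counts in all 28 columns. Notch1 had 5 intronic counts in the F columns, in 4 of 8 of them. The genes with short introns went the other way: Sox9 had 32 intronic beside 116869 exonic counts over all columns, 29 of the 32 in BRP571, Hes1 had 0 beside 20316 exonic counts, and Hes5 had 1. Over the 8 genes in both tables, 32.1% of F counts were intronic. This share was 78.6% without F11 and F12, whose exonic Sox9 counts made most of the total, and 82.0% in all 8 F columns for the 7 genes other than Sox9. Protocol and presumed cell type cannot be told apart in these shares.

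**Figure D4:**
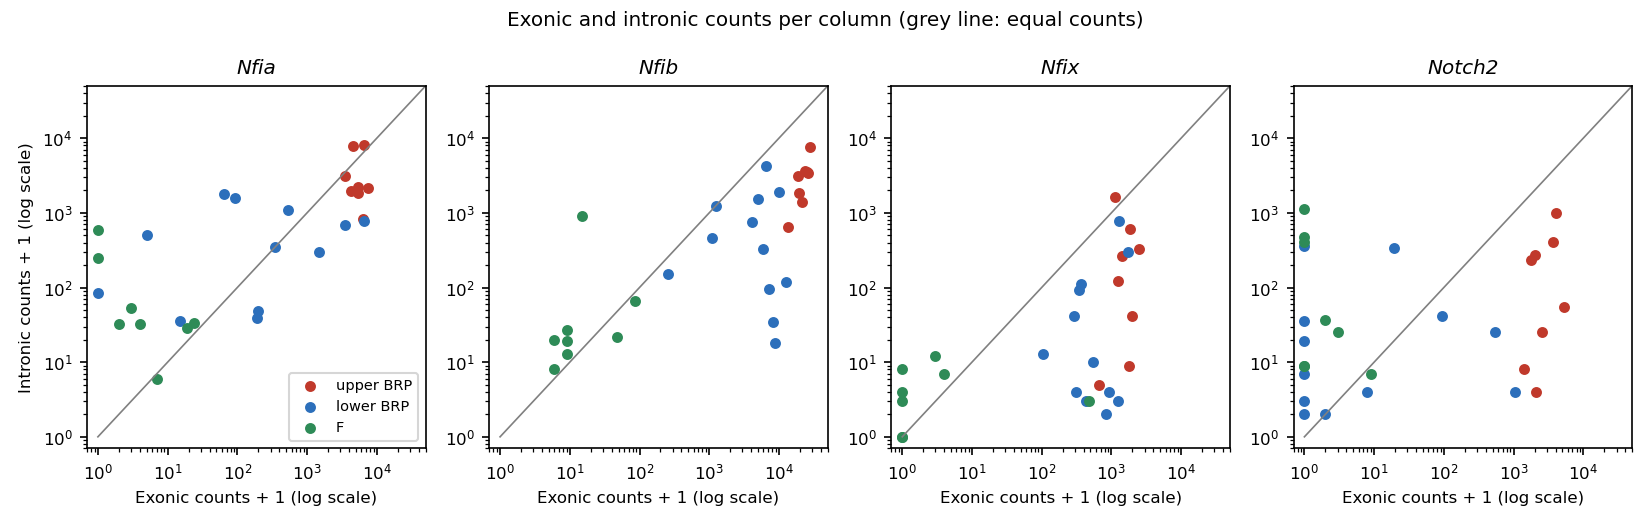
Intronic against exonic counts, each plus 1 on a log axis, for Nfia, Nfib, Nfix and Notch2 in every column, coloured by block, with a grey line at equal counts. F columns lie above the line in 7 of 8 cases for Nfia and for Notch2, and the upper BRP columns lie below it for Nfib and Notch2.

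Around the members, 39 other genes of the Notch pathway were examined, of which 36 passed the minimum of 10 counts. Of these, 1 was wholly higher in the upper than in the lower BRP columns, Dlk1, a noncanonical ligand, at 27.4 to 106 CPM against 0 to 26.2 CPM. That is 1 of 36 genes beside 3.20% of all genes. The count rests on a narrow gap and was 0 when the columns were scaled by TMM or DESeq2 factors. In the opposite direction, Fbxw7, which marks the Notch intracellular part for degradation, was wholly higher in the lower BRP columns, at 124 to 1163 CPM against 0.243 to 46.8 CPM, which is 1 of 36 genes beside 2.52% of all genes.

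Among the ligands, Dner had block medians of 303, 449 and 580 CPM in the upper BRP, lower BRP and F columns, and Dll4 reached at most 0.0637 CPM in any column. The classical ligands were sparse: Jag1 had a median of 3.53 CPM in the upper BRP columns and 0 in the others, Jag2 had 0 counts in all upper BRP columns and a median of 1.45 CPM in the lower BRP columns, with counts in 9 of 12, and Dll1 had block medians of at most 0.0337 CPM, with 201 CPM in a single F column. Of the other receptors, Notch3 had a median of 7.80 CPM in the upper BRP columns and 0.0238 in the lower BRP columns, and Notch4 was at a median of 0 in the upper BRP columns.

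None of the 14 processing genes was wholly higher in either BRP block. They differed in how widely they were detected: Mfng had counts in 2 of 8 upper and 1 of 12 lower BRP columns and Mib1 in 3 and 8. Adam10, the protease that sheds the receptor, had medians of 112 and 60.3 CPM in the upper and lower BRP columns. Lfng, a glycosyltransferase that tunes ligand choice, was low, at 0.891 to 5.80 CPM in the upper BRP columns and 0 to 1.07 in the lower BRP columns, and became wholly higher in the upper BRP columns when BRP529 was left out. Rbpj had medians of 44.7 and 30.3 CPM and a range of 2.42 to 135 CPM against 0.0996 to 114 CPM. In the F columns Rbpj reached at most 1.37 CPM.

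Of the other Hes and Hey genes, Hey1 was at 40.8 to 177 CPM in the upper BRP columns. It was at 0.0470 to 115 CPM in the lower BRP and 0 to 0.723 CPM in the F columns. Hes6 had medians of 49.9, 2.25 and 0 CPM in the same blocks. Per kb, the upper BRP medians were 27.6 CPM for Hes6 and 23.3 CPM for Hey1, while in CPM alone the median of Hey1 was the higher, at 76.2. Hes3 had no count in any column. Against the F columns, 12 of the 36 pathway genes were wholly higher in the upper BRP columns, where 19.4% of all genes were, among them Dlk1, Rbpj, Maml2, Numb, Itch and Hey1. In the lower BRP columns 5 of 36 were, against 8.62% of all genes.

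**Figure D5:**
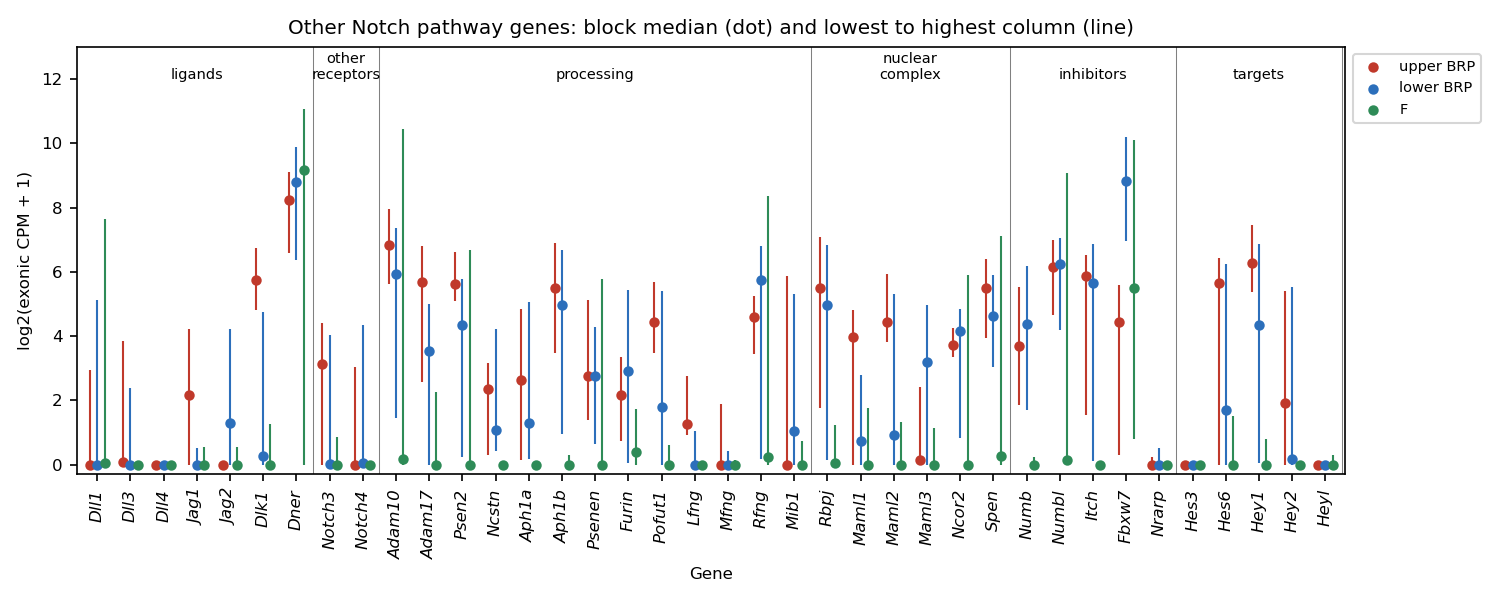
Exonic level, as log2(CPM + 1), of other Notch pathway genes grouped by role, with the median (dot) and the range from lowest to highest column (line) of each block. The ranges of the upper and lower BRP columns overlap for all but Dlk1 and Fbxw7, and most F medians are at or near 0.

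The other transcription factors of astrocytes and progenitors were set beside the members. Of 10 such genes, 4 were wholly higher in the upper than in the lower BRP columns, beside 3.20% of all genes. Zbtb20 ran from 110 to 557 against 0.450 to 45.8 CPM, Rfx4 from 89.9 to 232 against 0 to 13.96, Gli3, which relays hedgehog signals, from 15.8 to 353 against 0 to 12.4, and Tcf7l2, which relays Wnt signals, from 43.4 to 203 against 0 to 20.9 CPM. Prox1 had no block median above 0. Of the 9 SOX relatives, none was wholly higher in the upper than in the lower BRP columns, and 2 were, Sox1 and Sox6, without BRP528 and BRP529, beside 4.98% of all genes. Sox4 was at 21456 CPM in F11 and 21818 in F12, the same columns that were high in Sox9, while the other F columns had at most 6.47 CPM and the upper BRP columns 73.6 to 235.

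Of the 6 neuronal factors that Hes proteins oppose, 5 were tested and 1, Neurod1, was above the upper BRP columns in every lower BRP column, beside 2.52% of all genes. It ran from 0.0448 to 136 CPM and had 0 counts in every upper BRP column. The lowest value is 1 count, in BRP529, and lies under the 0.231 CPM that a count of 0 allows in an upper BRP column, so this separation is not beyond the depth. Neurod2 and Neurod6 had lower BRP medians of 34.6 and 15.9 CPM and upper BRP medians of 0. Neurog1 had no count in the lower BRP and F columns.

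Genes whose levels followed each member most closely were ranked by Spearman's rho over the 28 columns among 10644 genes. The closest were Sparc for Sox9 (rho 0.924), Plcd4 for Nfia (0.914), Gins2 for Nfib (0.935) and for Notch1 (0.941), Nup93 for Nfix (0.904), Eci2 for Hes1 (0.857) and Fam120aos for Notch2 (0.872). Next came Capzb and Kpnb1 for Sox9, Tnfaip8 and Cd9 for Nfia, Gm12657 and Ugp2 for Nfib, Rbm7 and Ugp2 for Nfix, Vav3 and Pdgfra for Hes1, Pml and Plxnb2 for Notch1 and Sspn and Ccdc3 for Notch2. Among the 3 closest to Sox2 were Tsc22d3 (0.794) and Slc18b1 (0.787). Hes5 had counts in too few columns to be ranked. Over the 20 BRP columns alone only 2 of the 24 genes, 3 for each ranked member, were again among the 3 closest, Pml and Plxnb2 for Notch1. Between the members themselves, rho over 28 columns ran from 0.395 to 0.886 in the 28 pairs without Hes5, whereas within the upper BRP columns it ran from −0.381 to 0.762 with a median of 0.238. The columns of a block presumably share a library kit and the blocks differ in depth, and no p-value is attached to these values.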

How the data were processed

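The authors deposited whole-number read counts per gene and cell, 1 table for exons and 1 for introns, without normalization. The submitters' processing notes name bcl2fastq 2.17, STAR 2.4.0 and mm10. The counting tool, annotation and strand setting are not given in the sources used here. None of the 28 columns could be matched to a sample, so all 28 were used as columns of unknown sample, in blocks by code, with no test. The 9 genes, the gene lists and the blocks were chosen with earlier results of these data known.

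Counts were divided by the column's exonic total (CPM) and shown as log2(CPM + 1) in figures. Lengths and positions came from GENCODE M21 (GRCm38), in which 92.9% of gene names matched 1 gene. Genes with at least 10 exonic counts over all columns were compared for overlap of blocks. Named genes were the 9 members, the highest, lowest and non-overlapping genes of each list, others given after their values were seen, and the 3 genes most like each member by Spearman's rho among genes detected in at least 14 columns. Scripts used Python 3.11.15, pandas 2.3.3 and scipy 1.17.1, with edgeR 4.0.16 and DESeq2 1.42.0 for scaling factors only. Only the comparison of block ranges was tested on simulated data, and the other steps were not. Alternatives covered scaling, pseudocount, thinning to 800000 counts, detection limits, filters and columns left out. Depth is given per block in the report. Several members overlap other annotated genes, and how the counting split reads there is not known here. A few genes of the lists and of the ranking are not reported here.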

Additional observations from a re-analysis of the deposited data

Results flagged for a closer look

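Each block of 8 columns was screened for single values far from the others (Dixon's ratio above 0.526). The usual rate of about 1 of 20 groups by chance holds for normal values and not for blocks that are mostly 0, where 1 count in a single column is enough, so the 5 of 17 gene and block pairs found are a description. Among the F columns, F1 had 31.7 CPM of Nfix where the next column had 0.683, and 13.5 CPM of Hes1 where the next had 0.228. F1 also had the only Hes5 count of the F columns, at 0.0674 CPM. F1 was the deepest F column and had the lowest intronic share of that block, at 5.31%. F16 had 9.54 CPM of Notch2 where the next F column had 0.473, from 8 counts in the shallowest column. Among the upper BRP columns, BRP568 had 33.3 CPM of Hes5 where the next had 0.637. The part of depth and intronic share in these values was not tested.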

How the results depend on the processing

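Of 378 block medians recomputed under other settings, 357 moved by no more than 1 SD of their block's columns. All 756 recomputed with 1 column left out did likewise. Many of these could not move, so the counts overstate stability. Leaving out a column changes only the medians of its own block, and the detection limits and gene filters do not enter the medians. The SD is also wide where a block is uneven. Scaling by TMM or by DESeq2 size factors took the Notch pathway genes wholly higher in the upper than the lower BRP columns from 1 to 0, and both left 5 of 9 members above F, without Nfix. DESeq2 factors lowered the share of all genes wholly higher than F from 19.4% to 12.4% (upper BRP) and from 8.62% to 4.73% (lower BRP). With exonic and intronic counts added, 5 members were in every lower BRP column and 3 in every F column, whereas thinning, a limit of 10 counts or a limit of 1 CPM left 0 in every F column. Members wholly higher in the lower BRP than the F columns became 1 without F1 (Nfix; 11.8% of all genes) and 1 without columns under 5000000 counts (Nfib; 11.5%). Without BRP528 and BRP529, members wholly higher in the upper than the lower BRP columns rose to 5, all genes to 5.05% (filter reapplied) and Notch genes to 2; this was chosen after seeing the data. The intronic share of 8 members in F was 32.1%, 74.4% without columns under 5000000 counts and 78.6% without F11 and F12, where Nfib was also wholly higher in the lower BRP than the F columns (1 member); leaving out this pair was chosen after seeing the data.

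With 1 column left out, members wholly higher in the upper than the lower BRP columns numbered 3 to 5 (5 without BRP529, adding Sox2 and Nfia; 4 without BRP541 or BRP566) and all genes 3.20% to 4.02%; Notch genes numbered 1 to 2, members of the lower BRP above F 0 to 1 (1 without BRP537 or F1), and members in every lower BRP column 3 to 4 (4 without BRP539). The share of all genes in the upper BRP above F was 19.5% to 23.7% and in the lower BRP above F 8.65% to 12.2%. The causes were not tested.

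No paired analysis was possible because the columns carry no replicate number and match no sample. Blocks drawn with BRP565 as an added code were not run, since no column analysed here has that code. Depth limits the F columns most: 3 counts are 0.202 to 3.58 CPM there.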

Other observations

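BRP528 was the only BRP column high in all of the GABAergic genes Gad1 (1136 CPM), Gad2 (780 CPM) and Slc32a1 (798 CPM), with Gad2 alone at 340 CPM in BRP541. It held these beside 247 CPM of Sox2 and 176 CPM of Nfia. In the other 11 lower BRP columns Gad1 was at most 0.204 CPM. BRP529, also high in Sox2 and Nfia, had 0.0448 CPM of Gad1, but held 1285 CPM of oligodendrocyte precursor markers and 320 CPM of cycling markers in sum, against 139 and 28.3 CPM in BRP528. BRP541, at 191 CPM of Sox2 and 85.4 CPM of Nfia and highest of the block in Hes1, likewise held 896 CPM of oligodendrocyte precursor and 282 CPM of cycling markers.

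Markers of other cell types were also present in the upper BRP columns. The 5 oligodendrocyte precursor markers summed to 570 to 1143 CPM, the 2 ependymal markers to 84.7 to 272 CPM and the 3 cycling markers to 25.9 to 544 CPM. Oligodendrocyte markers reached at most 172 CPM in sum, pericyte or fibroblast markers 106.6 CPM, microglial markers 34.6 CPM and endothelial markers 19.7 CPM. Some F columns had larger sums, again mostly from a single gene of a list. F7 had 3210 CPM of oligodendrocyte precursor markers, all of it Olig1, and 836 CPM of ependymal markers, all of it Foxj1. F16 had 2093 CPM of microglial markers, all of it Csf1r. F11 and F12 had 1436 and 1294 CPM of oligodendrocyte markers, of which Mobp made 1435.8 CPM in F11. Their part in the levels of the 9 genes was not tested.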
